A study of Mus musculus with 27 samples.

Results

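The integrins of the hemidesmosome and chains of their laminin ligand were followed across the developing mouse esophagus as 7 genes: Itga6, Itgb4 and Itga3, which encode integrin subunits, Cd151, which encodes a tetraspanin, Lama3 and Lamb3, which encode laminin chains, and Dst, which encodes a plakin. The members were the genes whose name is carried by a probe of the array, read as the mean log2 ratio over their probes, which gave 7 of 28425 genes and 20 of 41174 probes. Each of 27 arrays compared the RNA of an esophagus, labelled with Cy5, with a Universal Mouse Reference RNA pooled from 11 mouse cell lines, labelled with Cy3, and 3 arrays were deposited for each of 9 groups. Wild-type groups were whole esophagus at the embryonic stages E11.5 and E15.5 (days of gestation), at birth (P0) and at postnatal day 7 (P7). Mutant groups at P7 were whole esophagus of Nrf2-/-, Keap1-/- and Nrf2-/-Keap1-/- mice on a C57BL background. The adult groups, wild-type and Nrf2-/-, were esophageal epithelium at 8 weeks, so that age and tissue cannot be told apart between P7 and adult. No transgene, Cre or other treatment was named for any group. Both deletions were constitutive, and the sources used here name individual animals as the source of RNA. In bulk tissue, fewer basal cells and less RNA per basal cell cannot be told apart.

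A hemidesmosome fastens a basal keratinocyte to the basement membrane. Integrin α6β4 spans the membrane, a laminin outside the cell is its ligand, and plectin and the epithelial isoform of dystonin (BPAG1e) inside the cell link it to keratin filaments. Lama3 and Lamb3 encode the α3 and β3 chains of this laminin. Integrin α3, paired with β1, binds the same laminin in focal contacts, and CD151 associates with both α3β1 and α6β4. Nrf2, encoded by Nfe2l2, is a transcription factor of the response to oxidants, and Keap1 keeps it at low levels. Loss of Keap1 leaves Nrf2 active.

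Across arrays, 58.9% to 69.3% of Cy5 spots were well above background, and replicate arrays correlated at 0.770 to 0.986 over all genes. The low end came from 2 embryonic arrays that stood with the other age. E11.5 replicate 3 correlated at 0.974 and 0.970 with E15.5 replicates 2 and 3, against 0.827 and 0.770 with E11.5 replicates 1 and 2. E15.5 replicate 1 correlated at 0.952 and 0.917 with E11.5 replicates 1 and 2, against 0.802 and 0.811 with the other E15.5 replicates. The labels were kept, and gene-level tests of members and partners at these ages are given with and without both arrays. Single probes, the Dst probe pairs, markers and other gene lists are given with both arrays only. Both arrays were picked by their own expression, so that adjusted p-values without them are optimistic. Nfe2l2 lay between -0.55 and 0.00 in wild-type and between -3.92 and -3.82 in Nrf2-/- esophagi at P7, between -4.14 and -4.08 in Nrf2-/-Keap1-/- esophagi, and between 0.81 and 1.27 in wild-type and -3.64 and -2.85 in Nrf2-/- adult epithelium, as labelled. Keap1 itself differed from wild-type by -0.45 in Keap1-/- (adjusted p = 0.145, limma) and by -0.99 in Nrf2-/-Keap1-/- esophagi (adjusted p = 0.0793); whether its probes lie in the deleted part is not given in the sources used here.

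Of the 20 member probes, 13 were above background on all 27 arrays and none was saturated, and 98 of 540 member values carried an outlier mark from the scanner software and were kept. Itga3, Itga6 and Itgb4 had 3 probes each, Lama3 had 2, Dst had 7, and Lamb3 and Cd151 had 1 each. On mouse build mm9, the Lamb3 probe lies at chr1:195167088-195169619, a span that crosses a gap between its ends, and the Cd151 probe at chr7:148657237-148657297. The Itgb4 probes lie at chr11:115869557-115869616, chr11:115869547-115869606 and chr11:115855887-115855946, the first 2 of which overlap. The Dst probes that the results turn on form 2 pairs. The upstream pair lies at chr1:34239785-34239844 (A_51_P489996) and chr1:34240391-34240450 (A_52_P552955), and the downstream pair at chr1:34351256-34351315 (A_52_P184304) and chr1:34364644-34364703 (A_51_P300434). The pairs are listed under different transcript records of Dst, and which protein isoform each reads was not established here.

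RefSeq promoter windows on GRCm38.p6, 250 bases before to 50 after a start, were held for 4 of the 7 members, in 8 windows. They are shown for Dst, which has 2 starts far apart and probe pairs that moved differently, and for Itga3, the member that differed in Keap1-/- esophagi. Neither Dst start was linked to a probe pair here, and windows and probes are placed on different mouse builds. The first Dst window is chr1:34011345-34011644 and the second chr1:34160010-34160309, both on the plus strand, and the Itga3 window is chr11:95076665-95076964 on the minus strand. Capitals mark GC boxes (GGGCGG, searched on both strands).
Dst first start: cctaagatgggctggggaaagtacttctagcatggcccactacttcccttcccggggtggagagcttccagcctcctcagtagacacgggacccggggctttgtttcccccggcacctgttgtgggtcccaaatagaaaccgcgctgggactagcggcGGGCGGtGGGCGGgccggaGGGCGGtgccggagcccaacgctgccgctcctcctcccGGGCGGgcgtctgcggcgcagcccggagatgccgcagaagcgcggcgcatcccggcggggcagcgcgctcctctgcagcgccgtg
Dst second start: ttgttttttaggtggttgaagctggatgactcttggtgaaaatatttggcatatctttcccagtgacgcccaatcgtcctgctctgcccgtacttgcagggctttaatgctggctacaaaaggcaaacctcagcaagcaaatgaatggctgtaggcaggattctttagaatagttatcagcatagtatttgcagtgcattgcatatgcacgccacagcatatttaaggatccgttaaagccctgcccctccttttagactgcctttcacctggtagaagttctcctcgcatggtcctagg
Itga3: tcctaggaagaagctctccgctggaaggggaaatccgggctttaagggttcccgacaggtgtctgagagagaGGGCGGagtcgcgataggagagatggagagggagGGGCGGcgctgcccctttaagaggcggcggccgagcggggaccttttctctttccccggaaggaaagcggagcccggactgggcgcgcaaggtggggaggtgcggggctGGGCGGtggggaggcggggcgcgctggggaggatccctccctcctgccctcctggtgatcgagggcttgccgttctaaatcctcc
The first Dst window held 4 GC boxes and a GC content of 70.3%, the second held none and 46%, and the Itga3 window held 3 and 66.7%. A GC box was present in 35.7% of all 32851 windows of this length. The core of the antioxidant response element, the sequence that Nrf2 binds (TGACNNNGC, both strands), was in none of the 8 member windows and in 12.4% of all windows. An AP-1 site (TGANTCA, both strands) was in 1 member window, a second Itga3 start at chr11:95069149-95069448, and in 7.81% of all windows. A match or its absence describes these letters only.

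All 7 members were measured in every group, and the range between their lowest and highest group means ran from 0.83 (Lama3) to 2.72 (Lamb3) on the log2 scale. Each value below compares an esophagus with the reference RNA for 1 gene, so that values are compared between samples and not between genes. Neighbouring groups in the order of means overlapped in 7 of 8 steps for Itga6 and Cd151, 6 for Itga3, 5 for Itgb4 and all 8 for Lama3, Lamb3 and Dst, so that the order of most groups lies within the spread of arrays.

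**Figure D1:**
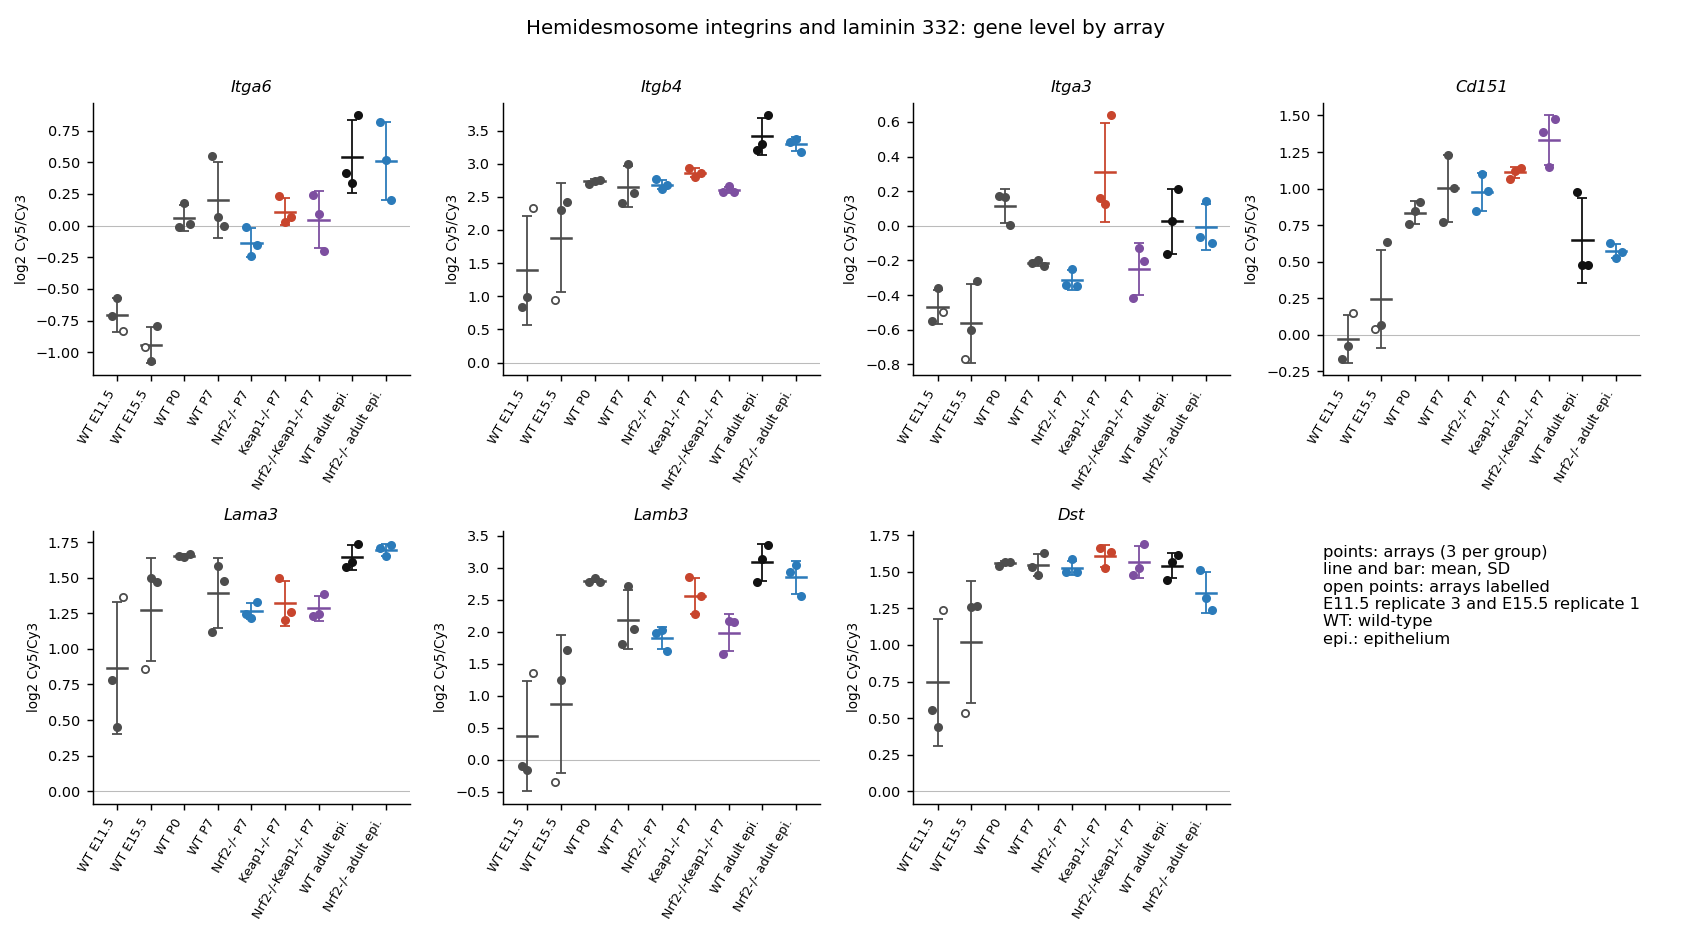
Log2 ratio of Cy5 (esophagus) to Cy3 (reference RNA) of each member on the vertical axis, with 1 point for each array in each of the 9 groups on the horizontal axis a bar for the group mean with its SD, and open circles for the 2 embryonic arrays that stood with the other age. Itgb4, Lama3, Lamb3 and Dst show the E11.5 array that lies with E15.5 and the E15.5 array that lies with E11.5, and Itga6 steps up between E15.5 and P0.

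Itga6 encodes the α6 subunit that pairs with β4. Its log2 ratios were -0.72, -0.57 and -0.83 at E11.5, -0.96, -1.07 and -0.80 at E15.5, -0.01, 0.18 and 0.01 at P0, and 0.55, 0.07 and 0.00 at P7. All embryonic arrays were thus below all P0 and P7 arrays, and the 2 embryonic arrays that stood with the other age were not set apart in this gene. The mutants lay between -0.24 and 0.24 at P7, inside or below the wild-type range. Adult epithelium gave 0.41, 0.34 and 0.87 in wild-type and 0.82, 0.52 and 0.21 in Nrf2-/- mice, overlapping P7. Of its 3 probes, A_52_P324934 moved differently from the others: it did not step up at P0 (-0.99 ± 0.53 at E15.5 and -0.81 ± 0.22 at P0, mean ± SD, n = 3) and was highest in wild-type adult epithelium (0.47 ± 0.24).

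Itgb4 encodes the β4 subunit, found in hemidesmosomes. It gave 0.84, 0.99 and 2.33 at E11.5, 0.94, 2.30 and 2.42 at E15.5, 2.70, 2.74 and 2.76 at P0, and 2.40, 3.00 and 2.56 at P7. The embryonic values fell into a low set and a high set that followed the resemblance between arrays rather than the labels. At P7 the mutants lay between 2.58 and 2.94, within the wild-type range. Adult epithelium lay at 3.21, 3.30 and 3.73 in wild-type and at 3.33, 3.37 and 3.18 in Nrf2-/- mice, above every P7 array. The 2 overlapping Itgb4 probes carried outlier marks on 18 and 20 of 27 arrays, and the third was above background on 16.

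Itga3 encodes the α3 subunit. It gave -0.55, -0.36 and -0.50 at E11.5, -0.77, -0.60 and -0.32 at E15.5, 0.17, 0.17 and 0.00 at P0, and -0.21, -0.20 and -0.23 at P7. Of the ages from E11.5 to P7, P0 was highest, with no overlap with the others, and wild-type adult arrays overlapped it. In Keap1-/- esophagi it gave 0.16, 0.12 and 0.64, above every other array at P7, where Nrf2-/- gave -0.34, -0.25 and -0.35 and Nrf2-/-Keap1-/- gave -0.42, -0.13 and -0.20. Adult values ran from -0.16 to 0.21 over both genotypes. Keap1-/- replicate 3 was the highest of the 27 arrays for this gene.

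Cd151 encodes the tetraspanin partner of both integrins. It gave -0.16, -0.07 and 0.15 at E11.5, 0.04, 0.07 and 0.63 at E15.5, 0.75, 0.85 and 0.91 at P0, and 0.77, 1.23 and 1.01 at P7. It was highest in Nrf2-/-Keap1-/- esophagi (1.38, 1.14 and 1.47), against 1.07, 1.12 and 1.14 in Keap1-/- and 0.85, 1.10 and 0.98 in Nrf2-/- esophagi. Adult epithelium gave 0.98, 0.47 and 0.48 in wild-type and 0.62, 0.53 and 0.56 in Nrf2-/- mice, so that it was the member whose adult mean lay furthest below its P7 mean. Its only probe carried an outlier mark on 18 of 27 arrays.

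Lama3 encodes the α3 chain of the hemidesmosome laminin. It gave 0.78, 0.45 and 1.36 at E11.5, 0.86, 1.50 and 1.47 at E15.5, 1.65, 1.65 and 1.67 at P0, and 1.12, 1.58 and 1.48 at P7. The mutants lay between 1.20 and 1.50 at P7 and adult epithelium between 1.57 and 1.74 in both genotypes. The range lay in 1 of its 2 probes: A_51_P167489 ran from 1.75 ± 0.87 at E11.5 to 3.14 ± 0.13 at P0 (mean ± SD, n = 3), while A_52_P141739, above background on 17 arrays, had group means between -0.02 and 0.31.

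Lamb3 encodes the β3 chain and had the widest range of group means. It gave -0.10, -0.15 and 1.36 at E11.5, -0.35, 1.24 and 1.72 at E15.5, 2.79, 2.84 and 2.79 at P0, and 1.82, 2.72 and 2.05 at P7. All 6 embryonic arrays lay below all P0 and P7 arrays. At P7, Keap1-/- esophagi gave 2.85, 2.29 and 2.56, above Nrf2-/- (1.98, 2.04 and 1.70) and Nrf2-/-Keap1-/- (1.65, 2.16 and 2.15) and overlapping wild-type. Adult epithelium gave 2.78, 3.14 and 3.35 in wild-type and 2.94, 3.05 and 2.57 in Nrf2-/- mice.

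**Figure D2:**
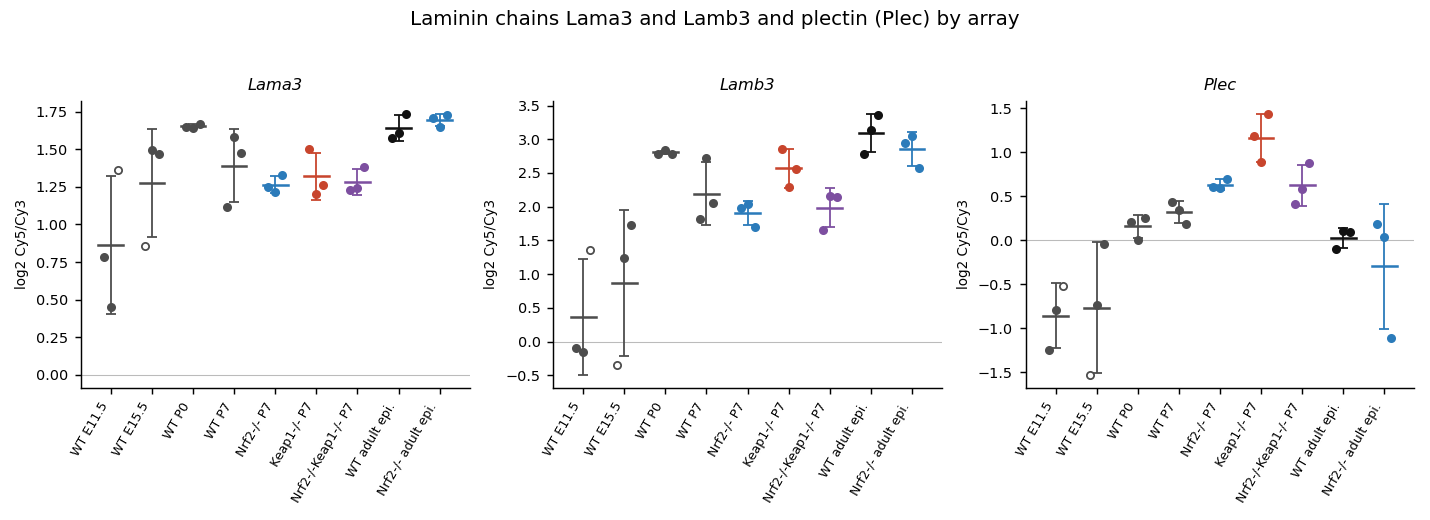
Log2 ratio of Cy5 to Cy3 by array (points, with the 2 embryonic arrays that stood with the other age as open circles) and group mean with SD (bars) for the laminin chain genes Lama3 and Lamb3 and for Plec, which encodes plectin, in the 9 groups. Plec is highest in Keap1-/- esophagi (mean 1.17), and Keap1-/- overlaps wild-type P7 for Lama3 and Lamb3.

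Dst encodes dystonin, whose epithelial isoform sits on the inner plaque of the hemidesmosome and whose longer isoforms are known from muscle and nerve. Its gene mean gave 0.56, 0.44 and 1.24 at E11.5, 0.54, 1.26 and 1.27 at E15.5, 1.54, 1.57 and 1.57 at P0, and 1.53, 1.48 and 1.63 at P7. From P0 on it was nearly flat, with group means between 1.36 (Nrf2-/- adult) and 1.61 (Keap1-/- P7). The mean is over 7 probes, of which A_52_P1076613 was above background on 0 arrays and A_52_P196350, listed on the minus strand, on 1. The flat mean hid a split between its probes. In wild-type, the upstream pair averaged 4.65, 5.48 and 4.98 at P7 and 5.61, 5.98 and 5.86 in adult epithelium, while the downstream pair averaged 0.70, -0.03 and 0.72 at P7 and -0.57, -0.65 and -0.34 in adult epithelium. The difference between the pairs within an array was 4.58 ± 0.83 at P7 and 6.34 ± 0.25 in adult epithelium (SD, n = 3) and did not overlap. It differed by 1.76 (exact two-sided permutation test, p = 0.1, the smallest that 3 against 3 arrays allow). The pairs had also moved apart earlier, from 3.23 ± 0.59 at E11.5 to 4.58 at P7, a change of 1.35 without overlap, and by 0.68 from E15.5 to P0, also without overlap (p = 0.1 in each of these exact permutation tests). No choice of the pairs in advance of these values is recorded, so that the permutation tests give no separate support for the split.

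**Figure D3:**
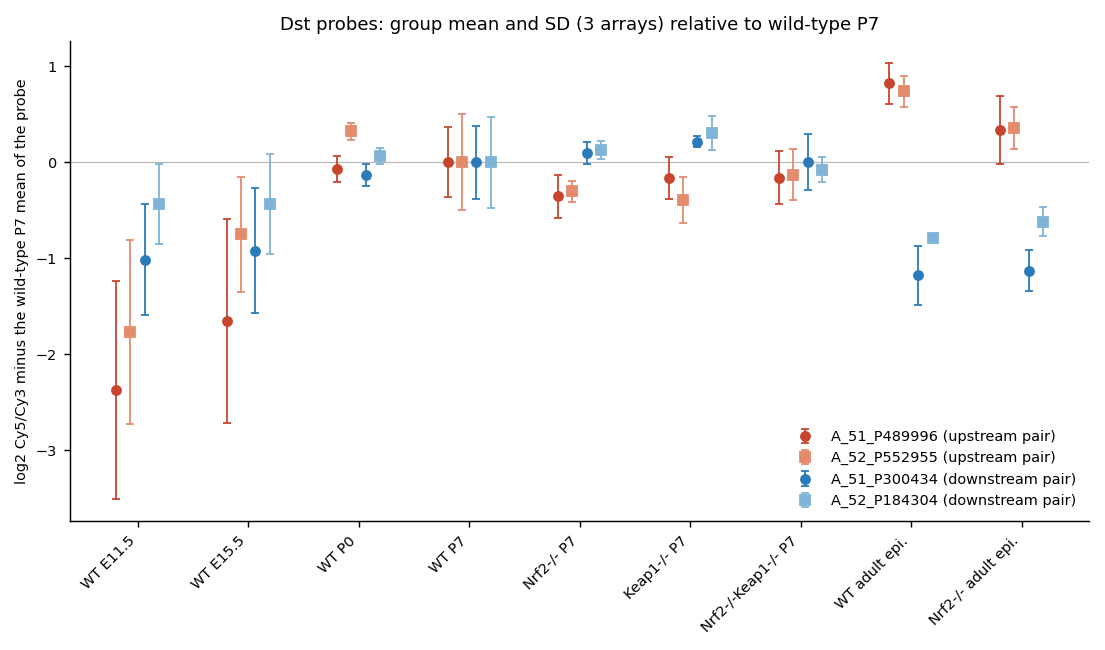
Group mean and SD over 3 arrays of the 4 Dst probes of the upstream and downstream pairs, each set to its own wild-type P7 mean on the log2 scale (vertical axis), over the 9 groups (horizontal axis). In adult epithelium the upstream pair lies above and the downstream pair below its P7 mean in both genotypes.

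The first question was how adhesion genes changed in the metaplasia phase, the span from E11.5 to P7 in which the simple columnar lining becomes a keratinized stratified squamous one. Between E15.5 and P0, all 7 members were higher at P0 and their arrays did not overlap, with 4 called higher by limma at an adjusted p of 0.05 or lower. Lamb3 rose 3.81-fold (log2 change 1.93 ± 0.52 SE, adjusted p = 0.0266), Itga6 2.00-fold (1.00 ± 0.15, adjusted p = 0.00173), Itga3 1.60-fold (0.68 ± 0.12, adjusted p = 0.00440) and Cd151 1.50-fold (0.59 ± 0.18, adjusted p = 0.0393). Itgb4 (0.85, adjusted p = 0.200), Dst (0.54, adjusted p = 0.128) and Lama3 (0.38, adjusted p = 0.298) did not pass. Of all genes tested, 19.7% were called, 11.3% as higher, and 43.9% had arrays that did not overlap. The median change was 0.68 over the members and -0.01 over all 19863 tested genes. No slide held both E15.5 and P0 arrays, so that age and slide cannot be told apart here. The same holds from E11.5 to P7 and from P0 to P7.

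Leaving out single arrays ended 2 of these calls. Lamb3 had a log2 change of 1.32 (adjusted p = 0.0714) without E15.5 replicate 1, and 1.94, 1.91 and 1.94 (adjusted p = 0.0722, 0.0792 and 0.0740) without P0 replicates 1, 2 and 3. Cd151 passed in 6 of 12 such fits, with a change of 0.49 (adjusted p = 0.128) without E15.5 replicate 1, 0.50 (adjusted p = 0.113) without E15.5 replicate 2, 0.63, 0.58 and 0.55 (adjusted p = 0.0778, 0.105 and 0.119) without P0 replicates 1, 2 and 3, and 0.59 (adjusted p = 0.0555) without P7 replicate 3. The calls of Itga6 and Itga3 held in all 12. Under median centring of arrays Cd151 was at 0.32 (adjusted p = 0.347), and with each spot's own local background Lamb3 was at 1.73 (adjusted p = 0.0732) and Cd151 at 0.54 (adjusted p = 0.0953). The Cd151 call also ended with slide as a random block (0.59, adjusted p = 0.0503), and Itga3 was at 1.02 by its brightest probe. At single probes, the rise of Itga6 came from A_51_P262401 (1.43) and A_52_P81270 (1.39) and that of Itga3 from A_51_P515056 (0.96) and A_52_P301804 (1.02), where 18.1% of all probes were called.

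From E11.5 to P7, 5 of 7 members were called higher, where 30.1% of all genes were called and 16.8% as higher. Lamb3 rose by 1.82 ± 0.52 on the log2 scale (adjusted p = 0.0245), Itgb4 by 1.26 ± 0.43 (adjusted p = 0.0492), Cd151 by 1.03 ± 0.18 (adjusted p = 0.00203), Itga6 by 0.91 ± 0.15 (adjusted p = 0.00189) and Dst by 0.80 ± 0.23 (adjusted p = 0.0243). Itga3 (0.25, adjusted p = 0.148) and Lama3 (0.53, adjusted p = 0.121) did not pass. The arrays of 6 members did not overlap, where 42.7% of all genes did so. Over all 4 ages together, limma's moderated F-test called 5 members, all but Itgb4 and Lama3, with 30.1% of all genes called. The calls of Itga6 and Cd151 from E11.5 to P7 held whichever array was left out. The other 3 ended without some arrays. Itgb4 kept its call in 3 of 12 such fits, and in the other 9 its change ran from 0.99 (adjusted p = 0.169, without E11.5 replicate 1) to 1.39 (adjusted p = 0.0761, without P7 replicate 1); these 9 left out E11.5 replicates 1 or 2, E15.5 replicate 2 or any 1 of the P0 or P7 arrays. Lamb3 was at 1.59 and 1.56 (adjusted p = 0.0891 and 0.0786) without E11.5 replicates 1 and 2, and at 1.56 and 1.90 (adjusted p = 0.0837 and 0.0533) without P7 replicates 2 and 3. Dst was at 0.71 and 0.65 (adjusted p = 0.0866 and 0.0807) without E11.5 replicates 1 and 2, and at 0.81, 0.84 and 0.76 (adjusted p = 0.0593, 0.0507 and 0.0702) without P7 replicates 1, 2 and 3. Dst was at 1.40 (adjusted p = 0.0184) over the probes above background on all 27 arrays, and at 0.65 (adjusted p = 0.0621) under median centring, where Lamb3 was at 1.41 (adjusted p = 0.0648). Itgb4 was at 0.50 (adjusted p = 0.263) with outlier-marked spots left out, and kept its call in 10 of 16 other settings.

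Between E11.5 and E15.5, no member was called, with changes from -0.24 to 0.50 and an adjusted p of 0.996 for each, but 0 of 19863 genes were called at all and 327 (1.65%) had an unadjusted p of 0.05 or lower. No member had arrays that did not overlap, where 3.79% of all genes did. Without the 2 embryonic arrays that stood with the other age, 4 members were called higher at E15.5, where 13.8% of all genes were called: Lamb3 by 1.61 (adjusted p = 0.00420), Itgb4 by 1.44 (adjusted p = 0.000920), Lama3 by 0.87 (adjusted p = 0.0102) and Dst by 0.77 (adjusted p = 0.00203). Itga6 (-0.29, adjusted p = 0.355), Itga3 (-0.01, adjusted p = 0.984) and Cd151 (0.47, adjusted p = 0.157) did not pass. Then 3 members were called between E15.5 and P0 (Lamb3 1.32, Itga6 0.99 and Itga3 0.57, 19.5% of all genes called) and 6 between E11.5 and P7, all but Itga3 (40.4% called), and all 7 over the 4 ages together (45.7% called). Itgb4, Lama3 and Dst were thus called between E11.5 and E15.5, and not between E15.5 and P0, when both arrays were left out, whereas Itga6 and Itga3 were called between E15.5 and P0 either way. Leaving out arrays for resembling the other age itself sets E11.5 and E15.5 further apart, so that the calls between these ages are not an independent test. E15.5 replicate 1 and the E11.5 arrays shared a slide, on which 6 of 7 members were lower in the E15.5 array than in the mean of the E11.5 arrays, by up to 0.71. Against E11.5 replicates 1 and 2 alone, 3 of 7 were lower, by up to 0.32, and Lamb3 was at -0.22. These counts rest on 1 E15.5 array, and the share of all genes lower on this slide was not computed.

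Between P0 and P7, no member was called in a fit that called 2.42% of all genes (14.2% at an unadjusted p of 0.05 or lower), nor was one with the 2 embryonic arrays omitted, where 5.65% were. Lamb3 was at -0.61 (adjusted p = 0.694), Itga3 at -0.33 (adjusted p = 0.248) and Lama3 at -0.26 (adjusted p = 0.717) relative to P0, all 3 with arrays that did not overlap, where 28% of all genes did so. The remaining 4 had changes between -0.08 and 0.17.

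Markers of some kinds of cell moved with these ages, and those of others overlapped. Basal squamous markers (7 genes such as Krt5, Krt14 and Trp63) had a mean log2 ratio of 2.08 to 3.27 at E11.5, 2.40 to 3.29 at E15.5, 3.54 to 3.79 at P0 and 3.25 to 3.89 at P7. The 11 general epithelial markers went from 1.10 to 2.21 at E11.5 to 2.76 to 2.97 at P0, with all 7 and all 11 above background at each age. Skeletal muscle markers, 9 of 12 above background at E11.5 and all 12 at P7, went from 0.12 to 1.60 to 3.92 to 4.63. Suprabasal squamous markers went from 0.36 to 1.94 at E15.5, with 8 of 14 above background, to 3.40 to 3.70 at P0, with 14 above, and 6 of 14 were called higher. Airway markers were at 1.17 to 1.73 at P0, with 3 of 5 above background (Foxj1, Sftpc and Scgb1a1), and at 0.21 to 1.20 at E15.5 and 0.02 to 0.20 at P7. Of 3 airway markers tested, Sftpc was called higher from E15.5 to P0, by 1.96, and Nkx2-1 and Sftpb were above background at none of the 4 ages. Other markers overlapped between E15.5 and P0: smooth muscle (1.71 to 3.24 and 3.01 to 3.23), fibroblast (0.46 to 1.55 and 1.28 to 1.48) and enteric nervous system (1.31 to 2.11 and 1.22 to 1.53). The part of epithelial content or airway tissue in the members' changes was not tested.

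**Figure D4:**
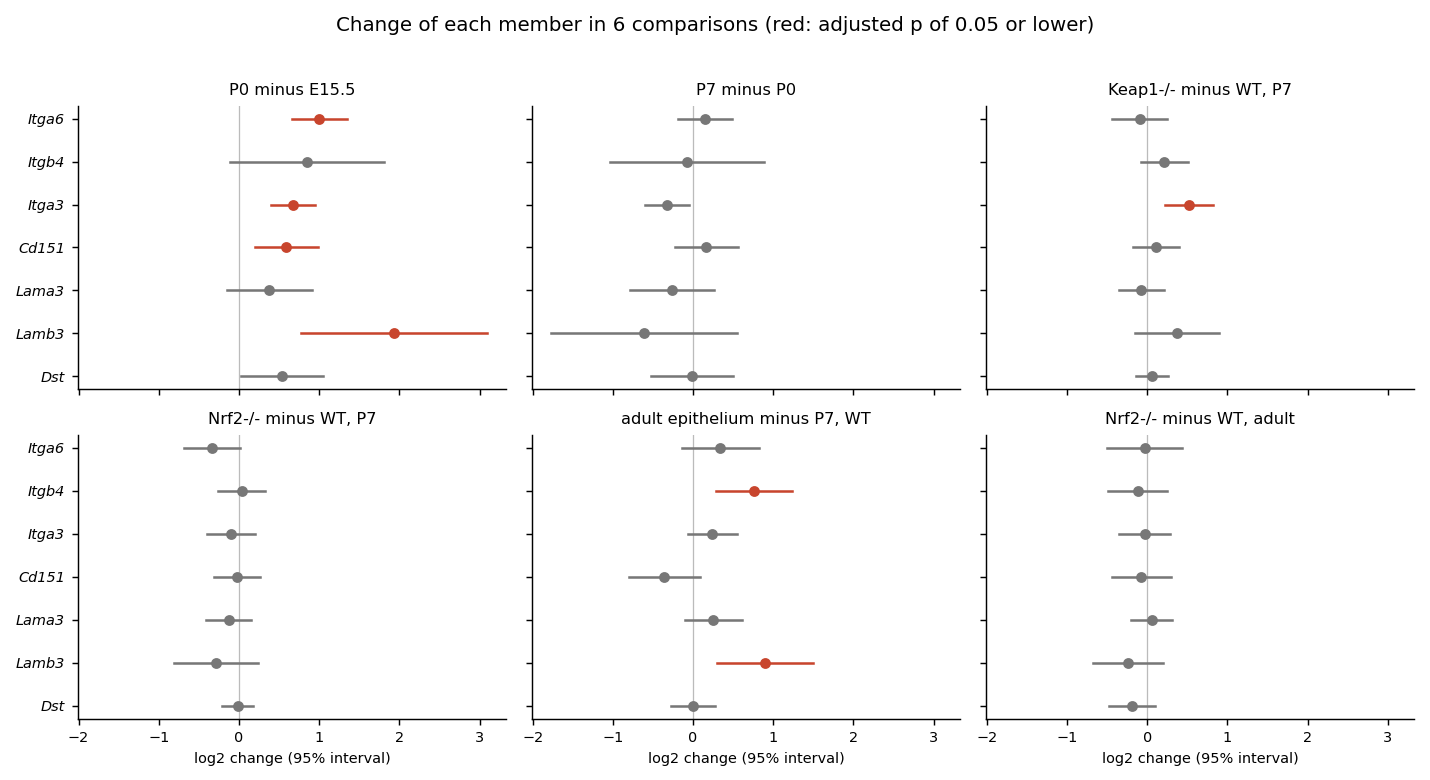
Log2 change of the 7 members (rows) in 6 comparisons (panels), with the limma estimate as a point and its 95% interval as a line, red where the adjusted p was 0.05 or lower. The 4 called changes from E15.5 to P0, Itga3 in Keap1-/- esophagi, and Itgb4 and Lamb3 in adult epithelium are the red points, and the genotype comparisons of Nrf2-/- hold none.

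The second question was whether the members depended on Nrf2 and Keap1 at P7. Itga3 was the only member called in Keap1-/- as compared with wild-type esophagi, where it rose 1.44-fold (log2 change 0.52 ± 0.13 SE, adjusted p = 0.0125). It also rose by 0.56 ± 0.13 as compared with Nrf2-/-Keap1-/- esophagi (adjusted p = 0.00881), which lack Keap1 as well. The 2 Keap1-/- comparisons called 33.3% of all genes each, 15.4% and 15.1% as higher, so that 1 of 7 members was below the background share. The Keap1-/- arrays were the same in both. Itga3 was also the 1 member whose Keap1-/- and wild-type arrays did not overlap, where 45.1% of all genes did so. At single probes, A_51_P515056 rose by 0.76 and A_52_P301804 by 0.67 as compared with wild-type, and A_51_P230405 gave 0.18 ± 0.06 in Keap1-/- and 0.05 ± 0.13 in wild-type esophagi (SD, n = 3); 33.5% of all probes were called.

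The other members gave small differences between Keap1-/- and wild-type esophagi. Lamb3 was at 0.37 (adjusted p = 0.252, 95% interval -0.15 to 0.89), Itgb4 at 0.21 (adjusted p = 0.248), Cd151 at 0.11, Dst at 0.06, Lama3 at -0.07 and Itga6 at -0.10. As compared with Nrf2-/-Keap1-/-, the arrays of Itga3, Lamb3 (0.58, adjusted p = 0.0825), Itgb4 (0.26, adjusted p = 0.157) and Cd151 (-0.22, adjusted p = 0.214) did not overlap, where 48.5% of all genes did so. At single probes, the Itga6 probe A_52_P81270 was also higher there by 0.85 (adjusted p = 0.00326), where 33.2% of all probes were called, but the gene mean was at 0.06. Without wild-type P7 replicate 2, whose Itgb4 and Lamb3 values were the highest of its group, Itgb4 (0.38, adjusted p = 0.0116) and Lamb3 (0.63, adjusted p = 0.0381) were called beside Itga3 as compared with wild-type, and Itgb4 (0.26, adjusted p = 0.0330) and Lamb3 (0.58, adjusted p = 0.0315) as compared with Nrf2-/-Keap1-/-. Under centring of each array on its median in place of loess, 4 members were higher than in wild-type, Itga3 (0.80), Cd151, Itgb4 and Lamb3, where 28% of all genes were called higher and the median of all genes moved by 0.14.

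No member was called in Nrf2-/- esophagi, where 0.0156% of all genes were called (10.8% at an unadjusted p of 0.05 or lower), nor in Nrf2-/-Keap1-/- esophagi, where 0.458% were (17.5% unadjusted). No member probe was called in Nrf2-/- esophagi either, where 0.0143% of all probes were. The changes ran from -0.34 (Itga6) to 0.03 (Itgb4) in Nrf2-/- and from -0.21 (Lamb3) to 0.33 (Cd151, adjusted p = 0.220) in Nrf2-/-Keap1-/- as compared with wild-type. The arrays of 2 members, Itga6 and Itga3, did not overlap between Nrf2-/- and wild-type (16.4% of all genes), and those of none between Nrf2-/-Keap1-/- and wild-type (21.6%). No slide held wild-type P7 arrays together with arrays of a mutant, so that genotype and slide cannot be told apart in these comparisons. The interaction of both losses was not called for any member, where 15.1% of all genes were called (30.4% at an unadjusted p of 0.05 or lower), and for Itga3 it was 0.46 ± 0.19 (adjusted p = 0.127). The effect of Keap1 loss on Itga3 was therefore not shown to differ with Nrf2. Itgb4 passed for the interaction without wild-type P7 replicate 2 (0.47, adjusted p = 0.0321).

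The 3 Keap1-/- arrays were on a slide and in a scan of their own, and were read with a newer version of the scanner software than the other P7 arrays, so that genotype, slide, scan and software cannot be told apart. Outlier marks covered 1.85% to 3.72% of their spots, against 8.83% to 14.2% on the other P7 arrays, and no Itga3 probe carried a mark on any array. Basal squamous markers had similar means in Keap1-/- (3.52 to 3.85) and wild-type (3.25 to 3.89) esophagi, and 2 of 7 were higher and 1 lower. Fibroblast markers were at 0.29 to 0.66 in Keap1-/- and 1.11 to 1.32 in wild-type esophagi, with 7 of 12 lower, and all 12 were above background in both. General epithelial markers were at 1.19 to 1.28 against 2.49 to 2.82, with 7 of 11 lower and 1 higher. The part of these in the result for Itga3 was not tested.

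The third question was how the adult epithelium differed from the P7 esophagus in the maturation phase. Itgb4 rose 1.69-fold (log2 change 0.76 ± 0.21 SE, adjusted p = 0.0208) and Lamb3 1.86-fold (0.90 ± 0.25, adjusted p = 0.0247). The other members did not pass: Itga6 was at 0.34 (adjusted p = 0.221), Lama3 at 0.25 (adjusted p = 0.222), Itga3 at 0.24 (adjusted p = 0.180), Dst at 0.00 (adjusted p = 0.986) and Cd151 at -0.36 (adjusted p = 0.165). Of all genes tested 42.9% were called, 19.9% as higher, and the arrays of 55.8% did not overlap, as did those of 3 members. The median over the members was 0.25 and over all genes 0.01.

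Both calls depended on the setting. With each spot's own local background Itgb4 was at 0.24 (adjusted p = 0.545) and Lamb3 turned to -0.12 (adjusted p = 0.900), and with scale normalization between arrays they were at 0.35 (adjusted p = 0.227) and 0.55 (adjusted p = 0.168). Itgb4 was at 0.50 (adjusted p = 0.151) by its brightest probe and at 1.21 with the processed signals. Leaving out single arrays also ended both calls. Itgb4 was at 0.63 (adjusted p = 0.0683) without P7 replicate 1, 0.71 (adjusted p = 0.0626) without P7 replicate 3 and 0.60 (adjusted p = 0.0564) without adult replicate 3. Lamb3 was at 0.71 (adjusted p = 0.0741), 0.83 (adjusted p = 0.0729) and 0.77 (adjusted p = 0.0763) in the same 3 fits and at 0.87 (adjusted p = 0.0727) without adult replicate 2. With scan as a block, which leaves the P7 arrays and adult replicates 1 and 2 to be compared, Itgb4 was at 0.60 (adjusted p = 0.0562) and Lamb3 at 0.77 (adjusted p = 0.0760).

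Single probes showed what the Dst mean did not. A_51_P489996 rose by 0.82 (adjusted p = 0.0153) and A_52_P552955 by 0.74 (adjusted p = 0.0412) in adult epithelium, while A_51_P300434 fell by 1.17 (adjusted p = 0.00455) and A_52_P184304 fell by 0.79 (adjusted p = 0.0247), where 41.4% of all probes were called. Thus 4 of 5 tested Dst probes changed, 2 in each direction, and the gene mean did not. The remaining tested probe, A_52_P445253, lies further upstream than the upstream pair (chr1:34209337-34211389) and did not rise with it. It was at -0.01 ± 0.17 at P7 and -0.15 ± 0.13 in adult epithelium (wild-type, mean ± SD, n = 3). With Dst read by its brightest probe in place of the mean, the gene was called lower (-1.17, adjusted p = 0.00464). Of Itgb4, A_52_P459521 rose by 0.95 and A_52_P143287 by 0.83, and of Itga6, A_52_P324934 rose by 0.80. From E11.5 to P7, 3 Dst probes rose (A_51_P489996 by 2.37, A_52_P552955 by 1.77 and A_51_P300434 by 1.01), the upstream pair by more than the downstream one, where 28% of all probes were called.

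The tissues differed in the cells they held. Skeletal muscle markers were at 3.92 to 4.63 at P7 and 0.91 to 1.53 in adult epithelium, with 12 of 12 lower and Myh3 and Actn2 not above background in the adult. Fibroblast markers were at 1.11 to 1.32 and -0.62 to -0.21, with 11 of 12 lower, and smooth muscle markers at 3.15 to 3.56 and 2.33 to 2.49. Basal squamous markers were at 3.25 to 3.89 and 4.27 to 4.47, with 4 of 7 higher. General epithelial markers were at 2.49 to 2.82 and 1.59 to 1.97, with 3 of 11 lower and 2 higher. The part of tissue composition in the changes of Itgb4, Lamb3 and the Dst probes was not tested.

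In adult epithelium, no member was called in Nrf2-/- as compared with wild-type mice, where 0.446% of all genes were called (16.8% at an unadjusted p of 0.05 or lower). The changes ran from -0.24 (Lamb3, 95% interval -0.67 to 0.20) to 0.05 (Lama3), and no member's arrays were apart, where those of 22.6% of all genes were. In the scan that held both genotypes, wild-type replicate 3 against Nrf2-/- replicates 1 and 2, 6 of 7 members were lower in Nrf2-/-, by up to 0.38. For the same 6 members, that 1 wild-type array was the highest of its group (Itgb4 at 3.73, against 3.21 and 3.30 in replicates 1 and 2). The share of all genes that were lower within this scan was not computed. The interaction of Nrf2 loss with age was called for no member, where 0.0973% of all genes were called (11.2% unadjusted). No slide held both adult genotypes. Wild-type adult replicates 1 and 2 were also read in another scan, and with an older version of the scanner software, than the Nrf2-/- adult arrays. Genotype cannot be fully told apart from slide, scan and software in adult epithelium, nor in this interaction.

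Of 6 partner genes, Plec, Col17a1, Col7a1, Krt5, Krt14 and Erbin, 1 was called higher from E15.5 to P0, where 11.3% of all genes were, and 4 from E11.5 to P7, where 16.8% were. Erbin, which encodes a β4-binding scaffold protein, rose by 0.49 (adjusted p = 0.0181) in the first. Krt14, a basal keratin, rose by 2.76 (adjusted p = 0.0304), Col7a1, the collagen of anchoring fibrils, by 2.32 (adjusted p = 0.0179), Plec by 1.18 (adjusted p = 0.0176) and Krt5, the pairing keratin of Krt14, by 0.95 (adjusted p = 0.0215) in the second. Col17a1, which encodes the transmembrane collagen BP180, was at 2.50 (adjusted p = 0.0628), and at 3.58 (adjusted p = 1.91e-06) without the 2 embryonic arrays. The other calls from E11.5 to P7 ended without E11.5 replicate 1 (Krt14 2.15, Col7a1 2.04, Plec 0.98 and Krt5 0.75, adjusted p = 0.116, 0.0694, 0.0708 and 0.0850), and all but Plec without E11.5 replicate 2 (Krt14 2.51, Col7a1 2.03 and Krt5 0.87) or P7 replicate 2 (Krt14 2.49, Col7a1 1.99 and Krt5 0.76). Krt14 and Plec also lost the call without P7 replicate 1 (2.91 and 1.12), and Krt14 without P7 replicate 3 (2.88). The Erbin call ended without E15.5 replicate 1 (0.44) or P0 replicate 1 (0.49) or 3 (0.40), and under median centring (0.31), own local background (0.37) and with outlier-marked spots left out (0.46). Under median centring Krt5 (0.48), Krt14 (2.22) and Plec (0.92) also lost the call from E11.5 to P7, as did Krt14 with slide as a random block (2.62). Without the 2 embryonic arrays, Krt14 (3.62), Col7a1 (2.89), Plec (1.34) and Krt5 (1.23) were called from E11.5 to P7 beside Col17a1, where 40.4% of all genes were. Erbin was then called from E15.5 to P0 (0.44, adjusted p = 0.0428, limma), where 19.5% were. From E11.5 to E15.5, Col17a1 (3.25), Krt14 (2.69), Col7a1 (1.98) and Krt5 (0.87) were called, and Plec and Erbin were not, where 13.8% were.

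In Keap1-/- esophagi 2 of the 6 partners were called higher as compared with wild-type and none lower, where 15.4% of all genes were called higher and 33.3% in either direction. Plec rose by 0.84 ± 0.15 (adjusted p = 0.00190) and Krt14 by 0.98 ± 0.22 (adjusted p = 0.00604). Of the 3 Plec probes, 2 rose (A_52_P27225 by 1.45 and A_52_P71869 by 0.74) and A_52_P380502 was at 0.35 (adjusted p = 0.0921). As compared with Nrf2-/-Keap1-/-, Krt14 rose by 0.99, Krt5 by 0.92 and Plec by 0.54, while Erbin fell by 0.35. Of the 2 Erbin probes, A_51_P267338 fell, by 0.75 there and by 0.53 as compared with wild-type (adjusted p = 0.00660), and A_52_P276815 was at 0.06 and 0.15. The Erbin call ended under median centring (-0.26, adjusted p = 0.228) and its change was 0.0026 with outlier-marked spots left out. With all 27 arrays in 1 fit Krt14 lost both calls (adjusted p = 0.250 and 0.245) and Plec the one against Nrf2-/-Keap1-/- (adjusted p = 0.193). Against Nrf2-/-Keap1-/-, Plec lost its call without Keap1-/- replicate 3 (0.41, adjusted p = 0.0796) or Nrf2-/-Keap1-/- replicate 1 (0.44, adjusted p = 0.0766) or 2 (0.52, adjusted p = 0.0516). Col17a1 (-0.34, adjusted p = 0.168) and Col7a1 (0.35, adjusted p = 0.305) did not pass. In adult epithelium Erbin was the 1 partner called (0.55, adjusted p = 0.0103), and that call ended with own local background (0.20, adjusted p = 0.446), under median centring (0.63, adjusted p = 0.0855) and by the brightest probe (0.40, adjusted p = 0.0982).

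Related families were counted in the same fits. Of all genes, 42.9% were called in adult epithelium as compared with P7, 19.9% as higher. In adult epithelium as compared with P7, 6 of 7 tested other laminin chains were lower (Lamb1 at -3.74, median -1.53) and none was higher, and 16 of 17 other basement membrane genes were lower (Nid2 at -4.11, median -2.06). Of 20 other integrin subunits, 11 were lower (Itga7, the main muscle α subunit, at -1.39) and 2 higher (Itga2b at 0.59), and of 26 other tetraspanins 14 were lower (Upk1b at -8.66) and 1 higher (Tspan5 at 1.03). Desmosome genes ran the other way, with 8 of 13 higher (Dsg1a by 4.78) and 1 lower (Pkp2 at -2.55). Of the members, 2 of 7 were called higher and, by gene means, none lower. The P7 samples were whole esophagus and the adult samples epithelium, so that age and tissue cannot be told apart for any of these lists. The difference between the lists was not tested.

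From E15.5 to P0, 6 of 12 desmosome genes were called, all higher (Perp by 2.99), 2 of 8 other laminin chains were higher (Lamb2 by 1.26) and 1 was lower (Lama1 at -0.70), and 5 of 20 other integrin subunits were higher (Itgam, a leukocyte subunit, by 1.94) and 2 lower (Itga8 at -0.85). In Keap1-/- as compared with wild-type esophagi, 6 of 21 other integrin subunits were lower (Itgam at -1.25) and 1 higher (Itga9 at 0.42), 7 of 17 other basement membrane genes were lower (Col4a5 at -2.08) and 2 higher (Dag1 at 0.53), and 2 of 12 desmosome genes each were higher (Jup at 0.61) and lower (Pkp2 at -1.71). Of 7 tested proteinases, among which are those that process the hemidesmosome laminin, 2 were higher (Plau at 1.12) and 2 lower (Plat at -1.22). From E15.5 to P0, 19.7% of all genes were called, 11.3% as higher. In Keap1-/- as compared with wild-type esophagi, 33.3% of all genes were called, 15.4% as higher.

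Over the 27 arrays, which share groups and the reference RNA, all 21 pairs of members correlated above 0, from r = 0.33 (Lama3 and Cd151) to r = 0.96 (Itgb4 and Lamb3). Among 20892 genes searched, those most like Lamb3 were Itgb4 (r = 0.96), Ttc22 (0.96) and Epha1 (0.95), and those most like Itgb4 were Rhbg (0.98), Plekhh3 (0.97) and Casz1 (0.97). For Lama3 they were Trp73 (0.92), Klf5 (0.91) and Trp63 (0.91), which encode transcription factors known from squamous epithelium. For Itga6 they were Syt8, Il20rb and Tmem45b (0.91 each), for Itga3 Pmm1 (0.88), Ubxn6 (0.87) and Tnks1bp1 (0.87), for Dst Tppp3 (0.96), Gas6 (0.95) and Plac9a (0.95), and for Cd151 Pacsin3 (0.92), Cdh13 (0.90) and Plekha4 (0.90). For Dst the rank correlations were lower, at 0.64, 0.57 and 0.65.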

How the data were processed

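Each of 27 two-colour Agilent arrays of esophageal RNA against a common reference was used, 3 in each of 9 groups taken from the labels, with no dye swap. The values were spot intensities deposited by the authors as scanner output (Agilent Feature Extraction 9.1 in the submitters' processing notes, 10.5.1.1 or 10.7.3.1 per the file headers), and the deposited log10 ratios served as an alternative. From the intensities, background was corrected by normexp (offset 50), a local background above 5 times the array median was replaced by that median with the spot left out, and loess was run within each array. The log2 ratio of Cy5 to Cy3 was computed from the deposited intensities and averaged over spots, probes and genes, outlier-marked spots kept and missing values filled from additive probe and array effects. The number of arrays limits the precision.

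A gene was tested where a probe was well above background on at least 3 arrays of the fit. Groups were compared by limma 3.58.1 (R 4.3.3) in place of the permutation test of the study, with Benjamini-Hochberg adjustment over all genes tested and a threshold of 0.05, after the steps were tested on simulated data. The fits were the 4 wild-type ages, the 4 genotypes at P7, P7 against adult wild-type, the adult genotypes, and age with Nrf2. The named genes were all members, their probes, 5 partners, the called gene with the largest rise and fall of each other list, and the 3 genes most like each member. Erbin, of the partner list, was named after its values were seen. An item of the lists is not reported here. The members and lists were chosen with earlier results of these data known.

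Of 41174 probes, 27434 matched a RefSeq accession and the rest kept the name in the files. Replicate numbers come from the sample titles, with which the descriptions of E15.5 replicates 2 and 3 and P7 replicate 3 in wild-type disagree. All 3 same-number correlations were above 0.1 in 2 of 6 pairs of ages and in 1 of 6 pairs of genotypes at P7, with a lowest value of -0.451 and a highest of 0.640, and in neither the wild-type adult comparison nor the adult genotypes, and a fit with the number as a block was the alternative. Other alternatives were other signals, background corrections, normalizations, filters, probe summaries, scan and slide blocks, joint fits and leaving out each array.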

Additional observations from a re-analysis of the deposited data

Results flagged for a closer look

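Of the 6 genes read as partners, 1 had an effect of Keap1 loss that differed between mice with and without Nrf2, by the interaction term of the limma fit at P7. Of all genes, 15.1% were called for this term. For Plec the interaction was 0.85 ± 0.21 on the log2 scale (adjusted p = 0.0227), with a rise of 0.84 as compared with wild-type where Nrf2 was present. Plec group means were 0.32 in wild-type, 1.17 in Keap1-/-, 0.63 in Nrf2-/- and 0.62 in Nrf2-/-Keap1-/- esophagi, so that the Nrf2-/- mean also lay above wild-type. By probe the interaction was 1.25 for A_52_P27225 and 1.06 for A_52_P71869, both called, and 0.25 for A_52_P380502 (adjusted p = 0.447, limma). Of all probes, 15.4% were called. The term passed in 13 of 15 other alternatives and in 9 of 12 fits that left out 1 array, and was 0.78, 0.72 and 0.75 (adjusted p = 0.0526, 0.0530 and 0.0538) without wild-type replicate 3, Keap1-/- replicate 3 and Nrf2-/-Keap1-/- replicate 1. The Keap1-/- arrays had a slide and a scan of their own, from which genotype cannot be told apart.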

How the results depend on the processing

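Of 201 recomputations of a called member change under other settings, 174 kept the call, 26 kept the direction without passing and 1 reversed, and of 144 with 1 array left out 109 kept the call and 35 did not pass. Of uncalled changes, 16 of 1105 and 6 of 780 passed. Over all, 2230 changes were recomputed, 151 changed sign, and none was called the other way. The cause was not tested for any result below. For the 4 ages together, the number of members called went from 5 to 3 under median centring of arrays and to 2 with outlier-marked spots left out, where Lamb3 and Cd151 had too few values to be tested. From E15.5 to P0 it went from 4 to 2 where each spot kept its own local background and to 2 without outlier-marked spots, and from E11.5 to P7 from 5 to 2 under median centring and to 2 without outlier-marked spots. From E11.5 to E15.5 it went from 0 to 4 with the 2 embryonic arrays omitted. For Keap1-/- against wild-type it went from 1 to 4 under median centring and to 2 without outlier-marked spots. For Keap1-/- against Nrf2-/-Keap1-/- it went from 1 to 2 with processed signals and with the deposited ratios. These added Lama3 (0.51 in both, adjusted p = 0.0283 and 0.0279, limma), which was at 0.04 in the main fit. With no background correction and with median centring it also went to 2, which added Lamb3 (0.67 and 0.70). For adult epithelium against P7 it went from 2 to 0 with own local background, median centring, scale normalization between arrays, all 27 arrays in 1 fit, and scan as a block, and to 1 without outlier-marked spots and with only probes above background on all 27 arrays, the last chosen after seeing the data. Lamb3 then reversed to -0.12 with own local background, from 0.90, and Erbin, in Keap1-/- against Nrf2-/-Keap1-/- esophagi, to 0.0026 without outlier-marked spots, from -0.35.

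Leaving out 1 array gave 4 to 7 members called over the 4 ages, 2 to 4 from E15.5 to P0, 2 to 6 from E11.5 to P7, 1 to 3 in each Keap1-/- comparison, 0 to 1 for the interaction, 0 to 2 in adult epithelium and 0 to 0 elsewhere. From E11.5 to P7 the count was 2 without E11.5 replicate 1 or 2 or P7 replicate 2 or 3, and 3 without P7 replicate 1. With the replicate number as a block, 6 members were called over the 4 ages, 4 from E15.5 to P0, 5 from E11.5 to P7, 1 in each Keap1-/- comparison, 2 in adult epithelium and 0 elsewhere, and no call of a member between 2 groups changed. Median centring moved the median of all genes by 0.14 in Keap1-/- against wild-type esophagi and by 0.38 in adult Nrf2-/- against wild-type epithelium. The share of calls that were higher went from 46.1% to 66.1% in the former and from 55.6% to 36.3% from E11.5 to P7 under median centring, and from 46.5% to 27.2% in adult epithelium against P7 with own local background. Signal over background limits A_52_P459521 of Itgb4, above it on 16 arrays, A_52_P141739 of Lama3 on 17, and A_52_P1076613 and A_52_P196350 of Dst on 0 and 1.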
